A study of Mus musculus with 9 samples.

Results

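The RelB-only sites are 577 genomic regions to which RelB, but not RelA, was assigned by the peak lists of TNF-treated fibroblasts. They were chosen by the lists themselves. A site was kept where a peak of the first RelB library overlapped a peak of the second RelB library by at least 1 bp, both peaks were merged, and no peak of either RelA library at 6 h touched the merged region. Of 3023 RelB sites found in both libraries, 577 met this rule, which is a background share of 19.1%. A further 743 sites overlapped a peak of 1 RelA library, and 1703 sites, called shared sites here, overlapped peaks of both. For comparison, 391 RelA sites found in both RelA libraries were free of any RelB peak and are called RelA-only.

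The cells were Nfkb2-/- mouse embryonic fibroblasts (MEFs), an immortalized line that lacks p100, the product of Nfkb2, in every sample. They were left unstimulated (0 h) or were kept in 10 ng/ml TNF for 6 h, a chronic treatment termed TNFc. Chromatin was crosslinked with EGS and formaldehyde and RelA, which the library labels call p65, or RelB was immunoprecipitated, in 2 libraries per antibody at each time. Wild-type cells were not analysed here, so the sites describe RelB in cells without p100 and p52. Nothing in the labels says that the 2 libraries of a group came from separate cultures, so agreement between them may be technical.

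RelA and RelB are NF-κB subunits with a transactivation domain. They usually bind DNA as heterodimers with p50 or p52, at decameric κB sites that begin with GG and end with CC. RelA:p50 is the main dimer of the canonical pathway, held in the cytoplasm by IκBα until TNF releases it. RelB is best known from the noncanonical pathway, in which p100 retains RelB and its processing to p52 frees RelB:p52. RelB can also pair with p50, the only one of these partners that Nfkb2-/- cells can make.

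The sequences of the strongest RelB-only sites are shown as examples and do not represent the whole class. These are the sites with the highest mean of both RelB log2 folds over input, 9 of the top 10, each as 61 bases of the mm9 forward strand from 5′ to 3′. Capitals mark a match to the κB consensus (GG, a purine, any 3 bases, 2 pyrimidines and CC, on either strand) or, where there was none, an AP-1 match (TGANTCA) lying in the shown window. Without a κB match the window is centred on the site, and lower case throughout means that neither was in the window.
Fgfr2 intron, chr7:138143415-138143475: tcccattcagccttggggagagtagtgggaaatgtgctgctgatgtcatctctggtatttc
Fmnl2 intron, chr2:52802777-52802837: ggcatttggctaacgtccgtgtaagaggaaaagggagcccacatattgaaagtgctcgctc
Wdr95 and Gm15997, chr5:150340475-150340535: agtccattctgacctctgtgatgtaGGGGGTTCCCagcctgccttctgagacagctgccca
Slc10a7 intron, chr8:81105491-81105551: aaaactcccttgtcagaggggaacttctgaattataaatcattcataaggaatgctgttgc
Gm12216 intron, chr11:53616680-53616740: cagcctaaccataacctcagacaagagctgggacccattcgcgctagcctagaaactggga
Slc39a10 start site, chr1:46911052-46911112: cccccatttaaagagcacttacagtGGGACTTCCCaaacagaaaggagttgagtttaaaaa
near AC162447.1, chr1:196650265-196650325: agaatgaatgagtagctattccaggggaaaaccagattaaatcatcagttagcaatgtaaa
near Vdac3, chr8:23713051-23713111: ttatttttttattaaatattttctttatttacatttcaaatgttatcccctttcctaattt
far from Emx2, chr19:59666129-59666189: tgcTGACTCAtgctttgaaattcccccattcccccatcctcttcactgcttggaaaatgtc

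Only 2 of the 10 strongest RelB-only sites held a κB consensus match within 100 bp of their centre, and 3 of the 10 held an AP-1 match. Across all RelB-only sites the κB consensus was nonetheless the commonest of the motifs searched. The sequences also hold forms that resemble the consensus without meeting it, such as GGGGAAAACC at the site near AC162447.1, and these are taken up further on.

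The strongest RelB-only site lay in an intron of Fgfr2, a fibroblast growth factor receptor (chr7:138143200-138143690). Its RelB log2 folds, each the highest within the peak, were 4.52 in replicate 1 and 4.32 in replicate 2. The whole peaks held 32 and 35 ChIP reads and 6 and 6 input reads, and the nearest RelA peak was 26683 bp away. The next, in an intron of Fmnl2, which encodes a formin that builds actin filaments, had log2 folds of 4.46 and 4.17 and lay 12981 bp from a RelA peak. The site at the overlapping Wdr95 and Gm15997 genes had 4.09 and 4.52. That at the start site of Slc39a10, a zinc importer, had 4.32 and 4. Among the 10 strongest sites, the libraries differed most at the Slc10a7 intron, with log2 folds of 3.70 in replicate 1 and 4.91 in replicate 2. The whole peaks there held 18 and 70 ChIP reads and 7 and 19 input reads. The site far from Emx2, a homeobox gene whose start site was 132642 bp away, had 3.57 and 4.53 and lay 245041 bp from any RelA peak.

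Several of the strongest sites bordered RelA peaks. In the top 10, 4 sites had a RelA peak within 500 bp, at 40 bp for the Gm12216 intron, 52 bp for the Slc10a7 intron, 120 bp for the site upstream of Malt1 and 248 bp for the site near Vdac3. By contrast, 4 of the 10 had no RelA peak within 10 kb.

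RelB enrichment at the RelB-only sites was moderate. The folds, reads and false discovery rates (FDR) chose the members and are given as a description. The log2 fold over input ran from 1.46 through a median of 2.80 to 4.52 in replicate 1, and from 1.59 through 2.78 to 4.91 in replicate 2. The median of the mean log2 fold was 2.78, against 2.92 at sites with a peak of 1 RelA library and 3.29 at shared sites. Median ChIP reads were 17 and 20 at RelB-only sites and 31 and 38 at shared sites. Median input reads were 6 and 7 at RelB-only sites and 10 and 11 at shared sites. When all RelB sites were divided into 4 equal bins of mean RelB log2 fold, the strongest bin contained 64 RelB-only sites, which were 8.47% of it, whereas the weakest contained 242, or 32.0%. Even so, 13 RelB-only sites had a mean log2 fold above 4, which is 16-fold at the highest point of the peak and not over the whole site.

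**Figure D1:**
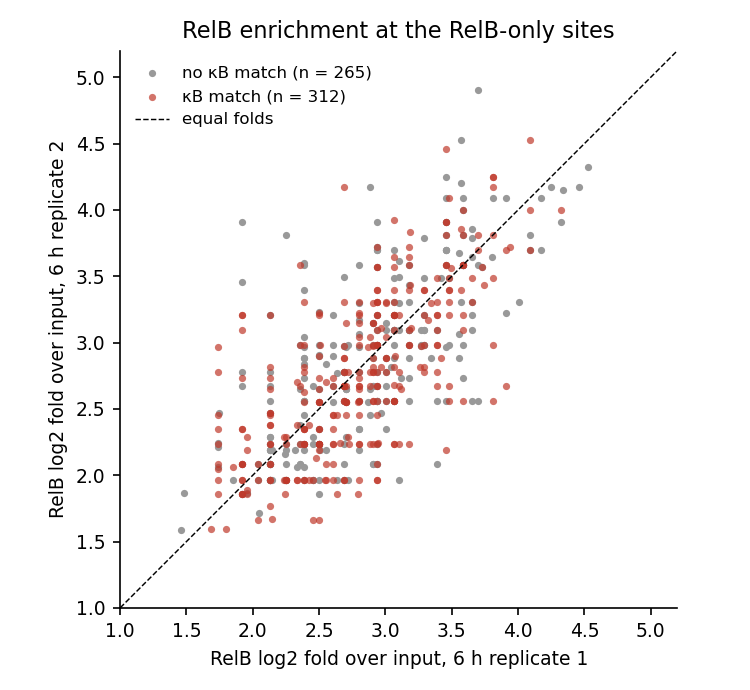
RelB log2 fold over input at each RelB-only site in the first RelB library at 6 h (horizontal) and in the second (vertical). Each point is 1 site, red where the κB consensus was matched within 100 bp of the centre (312 sites) and grey where it was not (265 sites). Points follow the dashed line of equal folds with wide scatter, and grey points are frequent among the highest folds.

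The folds of both libraries were related across the RelB-only sites (Spearman 0.69 across 577 sites, which share libraries and are not independent). The SD of the difference in log2 fold between replicates was 0.464. Both libraries had an FDR under 0.01 at 321 RelB-only sites, or 55.6%, compared with 88.6% of shared sites. The reads were also arranged differently. In each peak the authors' software gives the distance from the mode of forward-strand reads to the mode of reverse-strand reads, which for a bound protein is set by fragment length. Its median was 18 bp and 35 bp at RelB-only sites in the 2 libraries, 44 bp and 60 bp where 1 RelA library had a peak, and 89 bp and 95 bp at shared sites. The gap was present in each of the 4 bins of RelB fold. In the weakest, with 242 RelB-only sites, the medians were 4.5 bp and 10 bp, against 50 bp and 49 bp at shared sites. Folds are not matched within a bin. The strongest bin ran from a mean log2 fold of 3.54 to 5.55, whereas the highest RelB-only mean was 4.42. In the strongest bin the medians were 56 bp and 59.5 bp at RelB-only sites and 92.5 bp and 96 bp at shared sites, where median ChIP reads were 22.5 and 29 against 42 and 52. The part of these read numbers and strand distances in the differences described next was not tested.

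The κB consensus was matched at 312 of the 577 RelB-only sites, 54.1% (Wilson 95% interval 50.0 to 58.1), within 100 bp of the centre. It was matched in 9.88% of the flanking windows of the same length 1000 bp to each side, which is the share for other regions of that length nearby. RelB-only sites therefore exceeded their flanks by 44.2 percentage points (Newcombe 95% interval 39.7 to 48.5). They held the consensus less often than shared sites, of which 77.2% matched. The difference was -23.1 percentage points (-27.7 to -18.6). It was -13.1 points (-18.3 to -7.78) against sites with a peak of 1 RelA library, of which 67.2% matched. Against RelA-only sites, at 58.1%, the interval of the difference included 0 (-10.3 to 2.39). These intervals cover counting error over sites only. They were not adjusted for the 16 motif forms searched.

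The deficit in κB matches was present in each bin of RelB fold and had its largest value in the strongest bin. From the weakest of the 4 bins of RelB fold upward, the κB share of RelB-only sites was 57.0%, 54.0%, 54.5% and 42.2%. Shared sites had 74.7%, 73.6%, 79.8% and 78.5% in the same bins. RelB-only sites were lower by -17.7 points (-25.6 to -9.55) in the weakest bin and by -36.4 points (-48.1 to -23.7) in the strongest. Whether the deficit differed between bins was not tested. The fold helped to choose the sites, but the sequence did not.

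**Figure D2:**
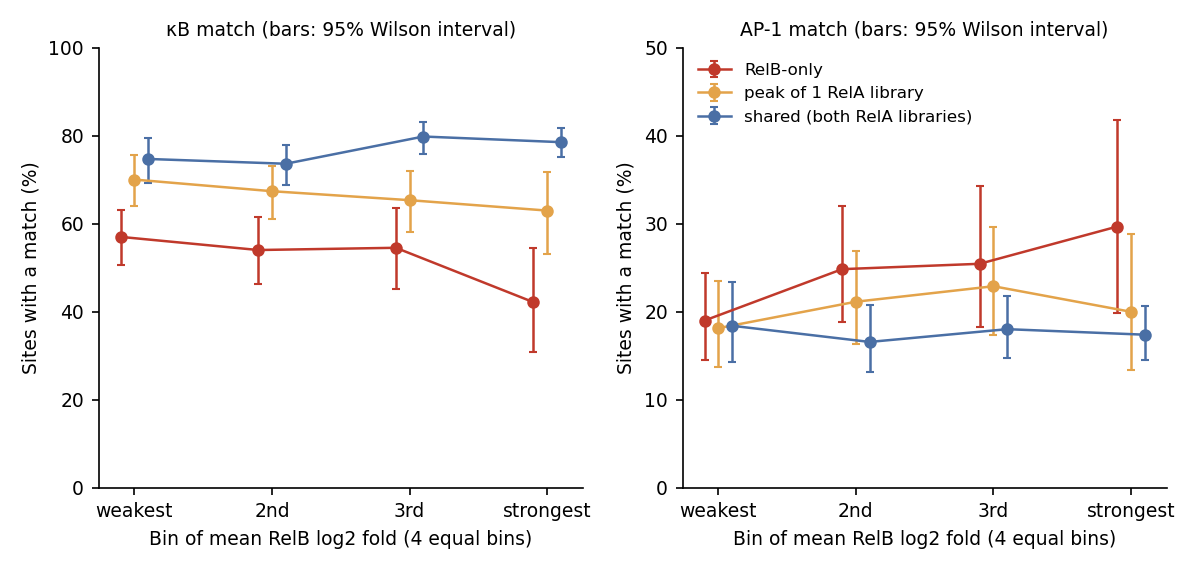
Share of sites with a κB match (left) and an AP-1 match (right), in percent, by bin of mean RelB log2 fold (4 bins of equal size), for RelB-only sites, sites with a peak of 1 RelA library and shared sites. Error bars are 95% Wilson intervals. The κB share of RelB-only sites was below that of shared sites in each bin, with 42.2% against 78.5% in the strongest, where the AP-1 share was 29.7% against 17.4%.

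AP-1, the Fos and Jun family of factors, recognizes TGANTCA. It was matched at 133 RelB-only sites, 23.1% (19.8 to 26.7), and in 7.28% of their flanking windows. The share at RelB-only sites was higher than at shared sites (17.6%) by 5.49 points (1.74 to 9.50) and higher than at RelA-only sites (9.21%) by 13.8 points (9.23 to 18.2). Sites with a peak of 1 RelA library had 20.5%, and the interval of that difference included 0 (-1.86 to 7.13). From the weakest bin of RelB fold upward, the difference from shared sites was 0.597, 8.27, 7.43 and 12.3 points. Its interval included 0 in the weakest bin (-6.08 to 7.40) and in the 3rd (-0.702 to 16.9). AP-1 was found at 28.3% (23.2 to 34) of the 265 RelB-only sites that had no κB match and at 18.6% (14.7 to 23.3) of the 312 that had one. At shared sites these shares were 18.6% and 17.3%. Neither motif was present at 190 RelB-only sites.

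Few of the other motifs set RelB-only sites apart from their flanks, and few from shared sites. GGAATG, the core recognized by TEAD factors of the Hippo pathway, was matched at 20.5% of RelB-only sites and 10.9% of flanks, a difference of 9.53 points (5.89 to 13.4), and at 20.8% of shared sites. The TEAD core was found at 26.8% of RelB-only sites without a κB match and at 15.1% of those with one. The GC box GGGCGG, bound by Sp1, was found at 7.97% of RelB-only sites, 9.40% of shared sites and 16.9% of RelA-only sites. RelB-only sites were lower than RelA-only sites by -8.91 points (-13.4 to -4.70). The differences between RelB-only sites and their flanks had intervals that included 0 for RUNX (TGTGGT, 15.1% at the sites), C/EBP (TTGCNNAA, 9.36%), ISRE (GAAANNGAA, 8.67%), the antioxidant response element (TGACNNNGC, 7.97%), the E-box CACGTG (3.64%), STAT (TTCCNGGAA, 1.56%), CArG (1.04%), ETS (CCGGAAG, 0.520%) and NF1 (0.173%). For the CRE (TGACGTCA), found at 3 RelB-only sites and in no flank, the difference was 0.520 points (0.043 to 1.52). The ETS form was the one further motif whose interval against shared sites excluded 0, at -1.36 points (-2.19 to -0.223).

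**Figure D3:**
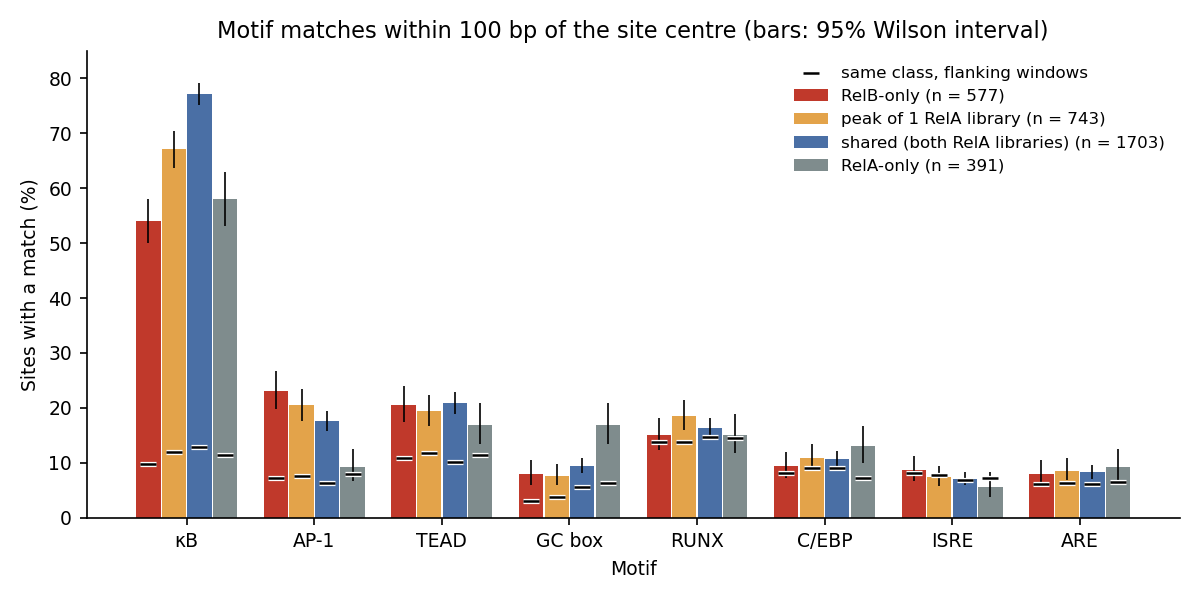
Share of sites, in percent, with a match to 8 motifs within 100 bp of the site centre, for the 4 classes of sites. Error bars are 95% Wilson intervals, and short black lines give the share in windows 1000 bp to each side. The κB share was 54.1% at RelB-only sites and 77.2% at shared sites, and the AP-1 share 23.1% and 17.6%.

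The κB matches of RelB-only sites were as close to the centre as those of other sites, but fewer per site. The median distance from the site centre to the nearest match was 30 bp at RelB-only sites and 30.5 bp at shared sites. A second match in the window was present at 66 of the 312 RelB-only sites with a match, 21.2% (17.0 to 26.0), compared with 44.8% (42.1 to 47.5) of the shared sites with a match and 43.2% of the RelA-only sites with one.

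The letters inside the κB match differed as well. This feature was noted after the sequences had been seen and is given as a description. In the match nearest to the centre, the middle pair (positions 5 and 6 of the 10 letters, the same pair on both strands) held at least 1 G or C at 189 of 312 RelB-only sites, 60.6% (55.1 to 65.8). The share was 47.1% (42.8 to 51.5) where 1 RelA library had a peak, 43.0% (40.3 to 45.7) at shared sites and 41.0% (34.8 to 47.5) at RelA-only sites. Among RelB-only sites with an FDR under 0.01 in both libraries it was 64.7%. It was 58.7% outside promoters, 58.7% at or below the median RelB fold of all RelB sites and 65.5% above it, where shared sites had 46.1%. With a stricter consensus, which fixes a G at position 3 and a purine at position 4, RelB-only sites had 64.8% and shared sites 47.0%.

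All 10-letter forms that begin with GG and end with CC were counted once per site, and both strands were counted as 1 form. The commonest form at RelB-only sites was GGAAAGTCCC, at 39 sites or 6.76%, which was also the commonest at shared sites, at 10.6%. GGAAACTCCC followed with 4.33%, beside 4.23% of shared sites and 1.02% of RelA-only sites, and GGAAAGCCCC with 3.99%, beside 4.99% and 0.767%. Several consensus forms with only A and T in the middle pair were scarcer at RelB-only than at shared sites. GGAAATCCCC was held by 1.73% of RelB-only sites and 7.75% of shared sites. GGAATTCCCC was held by 1.91% and 6.46%, and GGAATTTCCC by 1.04% and 4.29%, with 4.86% of RelA-only sites.

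The 2 next commonest forms at RelB-only sites did not meet the consensus, since an A stood at position 8, where the consensus has a pyrimidine. GGGGAAAACC also had an A in place of the other pyrimidine. Forms with this A were picked after the counts had been seen and are given as a description. GGAAAGTACC was present at 22 RelB-only sites, 3.81% (2.53 to 5.71), at 1.64% (1.14 to 2.37) of shared sites, at 1 RelA-only site and in no flanking window. GGGGAAAACC was present at 18 RelB-only sites, 3.12%, at 1.47% of shared sites, at 1 RelA-only site and in no flanking window. GGAAACCACC followed with 11 RelB-only sites, 1.91%, and 0.822% of shared sites. GGAAAGCACC had like shares, with 8 RelB-only sites, 1.39% (0.704 to 2.71), and 1.23% (0.808 to 1.88) of shared sites. Where 1 RelA library had a peak, the 4 forms were present at 2.56%, 1.48%, 0.673% and 1.08% of sites, in the order named. The wider pattern GGNNNNNACC did not separate the classes, with 31.0% of RelB-only sites, 29.3% of shared sites and 19.3% of the flanking windows of RelB-only sites.
For each of these 4 forms the strongest RelB-only site is shown with the form in capitals, on whichever strand it lies, in the forward orientation of mm9. Outside genes, a site is labelled by the gene with the nearest start site, which for Gm9726 was 352277 bp away.
GGAAAGTACC (reverse strand), near Gm9726, chr12:95519091-95519151: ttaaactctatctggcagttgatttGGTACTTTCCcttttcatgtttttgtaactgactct
GGGGAAAACC, near AC162447.1, chr1:196650263-196650323: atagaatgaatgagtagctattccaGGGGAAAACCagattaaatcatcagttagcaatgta
GGAAACCACC, near AC162038.1, chr6:94729913-94729973: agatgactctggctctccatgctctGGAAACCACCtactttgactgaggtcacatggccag
GGAAAGCACC, Kcnj15 intron, chr16:95506961-95507021: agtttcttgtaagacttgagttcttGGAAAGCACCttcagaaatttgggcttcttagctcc

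The RelB log2 folds at these sites were 3.65 and 3.86 near Gm9726, 4.17 and 4.09 near AC162447.1, 3.07 and 3.21 near AC162038.1 and 3.42 and 3.49 in the Kcnj15 intron. The site near Gm9726 lay 60 bp from a RelA peak and the Kcnj15 site 356 bp from one.

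RelB-only sites were mostly away from start sites. Of the 577 sites, 264 (45.8%) were intergenic, 244 (42.3%) intronic, 14 (2.43%) exonic and 55 (9.53%, 7.40 to 12.2) within 1 kb of an annotated start site. The promoter share was lower than at shared sites (14%) by -4.44 points (-7.19 to -1.35) and lower than at RelA-only sites (24.6%) by -15.0 points (-20.0 to -10.2). It was not distinguishable from that of sites with a peak of 1 RelA library (10.9%), with an interval of the difference from -4.62 to 1.99 points. The median distance to the nearest start site was 24827 bp at RelB-only sites, 19973 bp at shared sites and 12862 bp at RelA-only sites. Median GC content in the window searched for motifs was 45.8%, 48.8% and 49.8% in the same order.

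The RelB-only sites at promoters differed from the remaining ones in sequence. A κB match was present at 43 of the 55 promoter sites, 78.2% (65.6 to 87.1), and at 51.5% (47.2 to 55.8) of the other 522. At shared sites these shares were 83.2% and 76.2%. AP-1 was matched at 3 of the 55 promoter sites and at 24.9% of the others. Beside Gm15997 and Slc39a10, the promoter sites with the highest folds were those of the noncoding Gm14005, with log2 folds of 3.46 and 4.09, and of Itih1, which encodes a hyaluronan-binding heavy chain, with 3.58 and 3.21. Such sites also covered the start sites of Zyx, a focal adhesion protein, with 3.07 and 3.10, Ptx3 with 3.48 and 2.67, and Axl with 3.48 and 2.56. These examples were chosen after their values were seen, apart from those at Gm15997, Slc39a10, Ptx3 and Axl. The nearest RelA peak was 20 bp from the Itih1 site, 51786 bp from the Zyx site and 77618 bp from the Gm14005 site.

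Distances from RelB-only sites to RelA peaks are given as a description. A RelA peak of either library lay within 50 bp of 46 sites, or 7.97%, within 500 bp of 97 sites, or 16.8%, and within 50 kb of 322 sites, or 55.8%. The share of other regions with a RelA peak this close was not counted, so these shares have no background. The κB share was 47.4% at the 97 sites with a RelA peak within 500 bp and 55.4% at the other 480. A shared site was within 10 kb of 27 RelB-only sites, 4.68% (3.24 to 6.72). Shared sites had another shared site this close in 8.51% of cases, which left RelB-only sites lower by -3.84 points (-5.86 to -1.45). Sites with a peak of 1 RelA library had 7.94%.

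**Figure D4:**
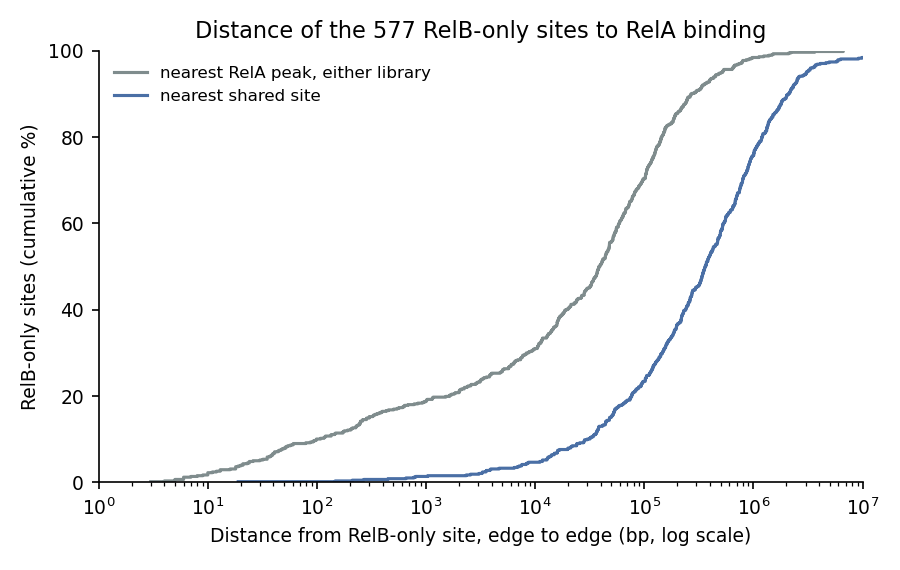
Cumulative share of the 577 RelB-only sites, in percent, by distance in bp from the edge of the site to the nearest RelA peak of either 6 h library (grey) and to the nearest shared site (blue), on a log axis. A RelA peak was within 500 bp of 16.8% of the sites, whereas a shared site was within 10 kb of 4.68%.

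The rule separates sites that differ by a few bases. The members nearest to a RelA peak were 3 bp from one near Gm14963 within Ehd1 (RelB log2 folds 2.13 and 2.23, RelA peak 2.36), 4 bp upstream of Tcea2 (2.70 and 3.14, RelA peak 2.68) and 5 bp in an intron of Vps37c (2.91 and 3.30, RelA peak 3.07). The sites just outside the rule overlapped a RelA peak by 1 bp upstream of Ifngr1 (2.24 and 2.78, RelA peak 2.01), 2 bp near Rtn4r (1.92 and 2.70, RelA peak 2.24) and 3 bp in Kcnq5 (1.74 and 2.56, RelA peak 1.97). Every RelA peak in the 6 h lists had at least 11 ChIP reads. The lists hold no RelA read number for regions without a RelA peak, so RelA binding too weak to be called was not measured at the members.

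The 5 members with the lowest mean fold included a site on chromosome Y, 314177 bp from the start site of Gm3395. It had log2 folds of 1.46 and 1.59, 34 and 44 ChIP reads, and 27 and 28 input reads. The others were an intron of Pard6g (1.69 and 1.60), a site near Vmn2r121 on chromosome X (1.48 and 1.86), one 72402 bp from Vgll3 (1.79 and 1.60) and an intron of Sdk1 (1.74 and 1.86). The sites in Pard6g and Sdk1 and the one near Vgll3 each held a κB match.

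Few peaks were called anywhere before TNF, with 35 and 14 in the RelB lists and 182 and 194 in the RelA lists at 0 h. Of the RelB-only sites, 5 of 577, 0.867% (0.371 to 2.01), overlapped a peak of any 0 h list, compared with 3 of 1703 shared sites, 0.176%. The RelB lists at 0 h contributed 4 and 2 of these sites and the RelA lists 3 and 2. The genes with the nearest start sites were Gm10553 on chromosome 1, Vmn2r121 and Astx3 on chromosome X and, for 2 sites, Gm3395 on chromosome Y. That of Astx3 was 57305 bp away, and that of Gm3395 was 314177 bp and 318085 bp away. None of the 5 sites held a κB match. The log2 folds of these sites at 6 h were between 1.46 and 2.38. At 0 h the RelB log2 fold was 2.39 at the Astx3 site in replicate 1, where RelA had 2.62 and 2.74, and 2.09 and 1.82 at the stronger of the Gm3395 sites. Input reads were 30 and 30 at that site and 15 and 24 near Vmn2r121, above the medians of 6 and 7 over all RelB-only sites. Leaving these 5 sites out gave a κB share of 54.5%.

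The genes around RelB-only sites were counted next, with the limit used in the study, a start site less than 50 kb from the site. Of 37273 annotated genes, 943 had a RelB-only site, a background of 2.53%, and 614 of these were protein-coding. Of the 943, 157 (16.6%) also had a shared site within the same distance, beside 8.08% of all annotated genes. A RelA peak was within this distance of 569 (60.3%), but the share of all annotated genes with one was not counted. The remaining 374 genes, 1.00% of those annotated, had a RelB-only site and no RelA peak within 50 kb. No gene had more than 2 RelB-only sites.

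Genes of inflammatory, growth and matrix functions were given by 15 lists of 461 genes, 459 of which were annotated. A RelB-only site was near 26 of the 459, 5.66%, beside 2.53% of all annotated genes. A shared site was near 142 of them, 30.9%, beside 8.08% of all annotated genes. Put the other way, genes of the lists made up 2.76% of the genes near RelB-only sites, 4.72% of those near shared sites and 1.23% of all annotated genes. A RelB-only site and no RelA peak within 50 kb were found for 3 of the 459 genes, 0.654%. With a background of 1.00%, so small a count is no result about the listed genes. These counts were not tested, and the classes differ in size, with 577 RelB-only and 1703 shared sites.

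**Figure D5:**
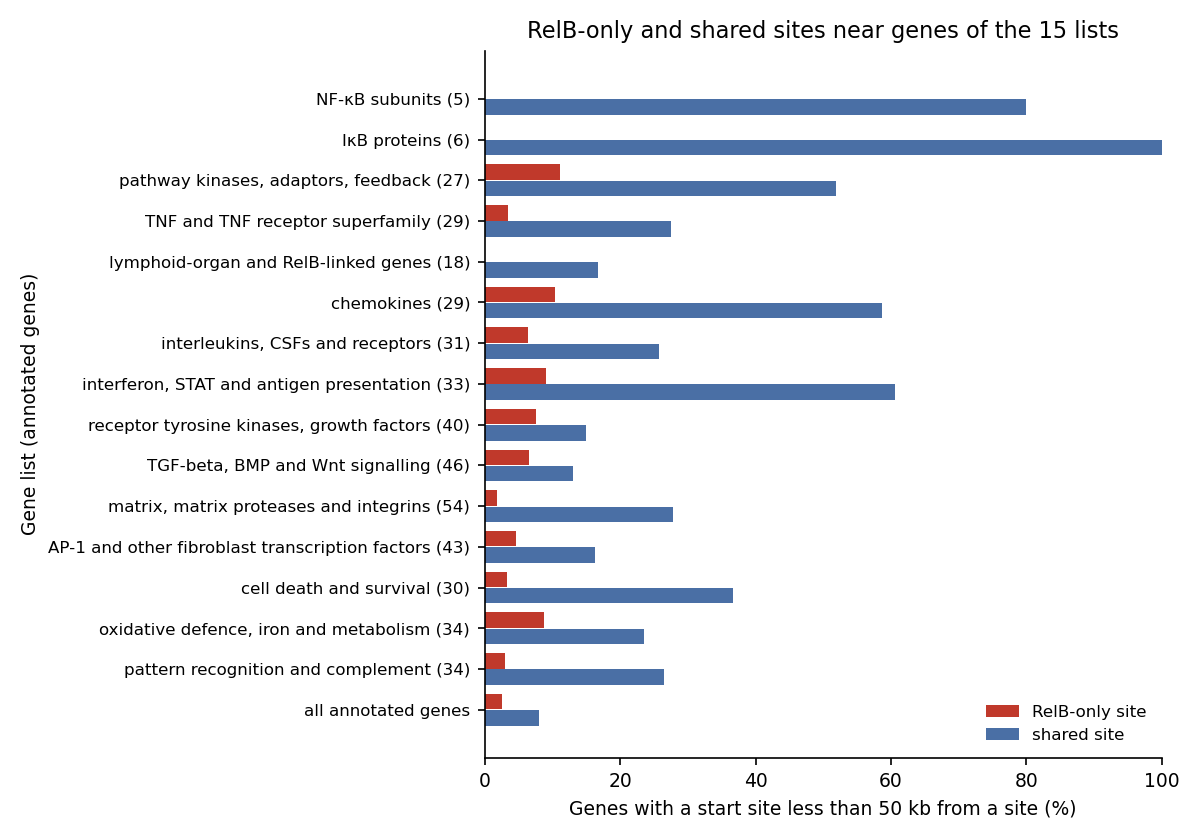
Share of the annotated genes of each list, in percent, with a RelB-only site (red) or a shared site (blue) under 50 kb from their start site, with all annotated genes in the last row. The number of annotated genes is in parentheses. No NF-κB subunit, IκB or lymphoid-organ gene had a RelB-only site. At a background of 2.53% of all genes, this is no result about so few genes. A shared site was near 4 of 5, 6 of 6 and 3 of 18 of them, beside 8.08% of all genes.

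None of the 5 NF-κB subunit genes, the 6 IκB genes and the 18 lymphoid-organ and RelB-linked genes was near a RelB-only site. At the background of 2.53% a count of 0 among so few genes is no result about them. Shared sites were near 4, 6 and 3 of them. Among 27 kinases, adaptors and feedback proteins of the NF-κB pathways, 3 had a RelB-only site. Malt1 and Bcl10, which together form the CBM signalling complex with a CARD scaffold, were both among them. The site 18113 bp upstream of Malt1 had RelB log2 folds of 4.34 and 4.15, with 55 and 51 ChIP reads in the whole peaks. It held AP-1 but no κB match and lay 120 bp from a RelA peak. The site 36819 bp upstream of Bcl10, in an intron of Ddah1, had 2.68 and 2.56 with a κB match. That in Tab1, an adaptor of the TAK1 kinase, had 2.94 and 2.67 and lay 431 bp from a RelA peak.

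Of 29 chemokine genes, 3 were near the same RelB-only site (chr8:97313372-97313903), which lies between Cx3cl1 and Ccl17. It had log2 folds of 2.60 and 2.45, held a κB match and was 20450 bp upstream of Ccl17, 17463 bp from the start site of Cx3cl1 and 43882 bp from that of Ccl22. Each of these genes also had 3 shared sites within 50 kb. In the 31 interleukin, colony-stimulating factor and receptor genes there were 2. The site near Csf1, the macrophage colony-stimulating factor, had 3.18 and 3.10 and lay 99 bp from a RelA peak. That in an intron of Il1r1, the interleukin-1 receptor, had 1.92 and 2.78. Of 29 genes of the TNF and TNF receptor superfamily only Tnfsf18, the GITR ligand, had one, with 2.14 and 2.19, 371 bp from a RelA peak.

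Interferon, STAT and antigen presentation genes gave 3 of 33. The site in Gm12216, 33178 bp from the start site of the interferon-responsive factor Irf1, ranked 6 among the RelB-only sites by mean fold, with log2 folds of 4.25 and 4.17. An intronic site of Stat3 had 3.07 and 3.70, held no κB match and was 37604 bp from a RelA peak. It was also 38457 bp from the start site of Stat5a. A second site 40708 bp upstream of Stat3 had 2.13 and 1.97. Pattern recognition and complement genes gave 1 of 34, Ptx3, a soluble pattern recognition protein of inflamed tissue. Its site covered the start site (chr3:66023624-66024022), had 3.48 and 2.67 with a κB match, and was 2048 bp from a RelA peak. Of 30 cell death and survival genes Ier3, an immediate early gene, had a site 8270 bp upstream with 3.29 and 2.98, 135 bp from a RelA peak.

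In 40 genes for receptor tyrosine kinases and growth factors there were 3. At Axl, a receptor for Gas6, the site spanned the start site (chr7:26573375-26573773), with log2 folds of 3.48 and 2.56, a κB match and the nearest RelA peak 6093 bp away. The site 44220 bp upstream of Hbegf, an EGF receptor ligand, was at the start site of Ankhd1 and had 3.29 and 2.82. The site 17851 bp upstream of Igf1r, the IGF-1 receptor, had 2.25 and 2.08. TGF-β, BMP and Wnt genes gave 3 of 46. The strongest was 35972 bp upstream of Inhbb, which encodes an activin subunit. Its log2 folds were 4.09 and 3.70, it held AP-1 and no κB match, and no RelA peak was within 50 kb of the Inhbb start site. Fzd2, a Wnt receptor, had a site at 1106 bp with 2.68 and 2.08, and Wnt5a one at 30483 bp with 2.13 and 1.97. The Fzd2 site lay 301 bp from a RelA peak and the Wnt5a site 34163 bp from one.

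Oxidative defence, iron and metabolism genes gave 3 of 34, and 2 of them had no RelA peak within 50 kb. Txnrd1, the cytosolic thioredoxin reductase, had an intronic site 16310 bp downstream of its start site with log2 folds of 3.35 and 3.30, a κB match and the nearest RelA peak 186001 bp away. Hk1, hexokinase 1, had a site 39379 bp downstream with 2.88 and 2.78 and a κB match, 109015 bp from a RelA peak. Slc2a1, the glucose transporter GLUT1, had a site at 31162 bp upstream with 2.68 and 2.67 and no κB match. The 54 matrix, protease and integrin genes gave 1, Cd44, the hyaluronan receptor, with an intronic site of 2.94 and 2.98 that held κB and AP-1 matches. The 43 AP-1 and other fibroblast transcription factor genes gave 2. Jun had a site 49003 bp upstream with 2.38 and 3.40, 148 bp from a RelA peak, and Elk3, an ETS factor, an intronic site with 2.38 and 2.35.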

How the data were processed

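ChIP-seq peak lists of 8 libraries were used. The authors trimmed reads with cutadapt, aligned them to mm9 with Bowtie keeping unique alignments, and called peaks per library with cisGenome against input of the same genotype (FDR under 0.1, fold above 2). They deposited an FDR, a q-value of each call, a log2 fold over scaled input, and unnormalized read counts per peak. Total reads are unknown, and the lists held between 120352 and 162105 ChIP reads in peaks per library at 6 h. A list for the input was not used here.

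Sites were built with an overlap of 1 bp. Motifs were searched on both strands within 100 bp of the centre in the mm9 genome, and position came from the GENCODE annotation of mm9. Shares were given with Wilson and differences with Newcombe 95% intervals, which cover counting error only. Sites are not replicates, so no p-value was computed. The members, gene lists and motifs were chosen with earlier results of these data known. Sites were named by rule: the 10 strongest, the 5 weakest, up to 4 per gene list, those with a 0 h peak and 3 on each side of the overlap limit. Site building, motif search and intervals were tested on simulated data. Alternatives changed thresholds, overlap, windows, annotation and libraries. Computation used samtools 1.23.1, pysam 0.24.0, scipy 1.17.1, numpy 2.4.6, matplotlib 3.10.9 and pandas 2.3.3 under Python 3.11.15.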

Additional observations from a re-analysis of the deposited data

How the results depend on the processing

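RelB-only sites held the κB consensus less often than shared sites under each of the 17 alternatives run, by -37.6 to -15.3 percentage points with intervals below 0. Requiring an FDR under 0.01 in all 4 lists gave a κB share of 60.2% and a share with a shared site within 10 kb of 2.91%. Requiring it of RelB only gave 321 sites, 478 genes and 2.80%. Without one library, the number of sites was between 903 and 3378: 3378 without RelB replicate 1, 2260 without RelB replicate 2, 994 without RelA replicate 1 and 903 without RelA replicate 2. The κB share was then between 39.6% and 60.1%, the AP-1 share between 14.7% and 22.9%, the share near a shared site between 6.53% and 8.05%, and the number of genes between 1478 and 5069. The κB share was 36.0% within 50 bp, 67.2% within 250 bp and 43.3% with the stricter consensus. The AP-1 share was 36.6% within 250 bp. A start site lay within 5 kb of 20.3%, and a shared site within 50 kb of 15.3%. Genes numbered 614 for protein-coding only, 237 within 10 kb and 1820 within 100 kb. The other alternatives left the counts within 1.5 times and the shares within their intervals. Leaving out the sites with a 0 h peak was chosen after seeing the data. Sequencing depth is unknown, so the absence of a RelA peak cannot be given a detection limit. No paired analysis was possible because the results are counts and shares of sites that came from no test, so there was no fit to which a replicate block could be added.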

Other observations

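The sex chromosomes differed from the autosomes in the share of RelB sites that lacked a RelA peak. Of the 20 RelB sites on chromosome X found in both libraries, 12 were RelB-only, 60% (Wilson 95% interval 38.7 to 78.1), compared with 563 of 3001, 18.8% (17.4 to 20.2), on the autosomes. Chromosome Y had 2 such RelB sites, and both were RelB-only. The difference between chromosome X and the autosomes was 41.2 percentage points (Newcombe 95% interval 19.8 to 59.4), and it was noticed after the counts had been seen. The strongest of these sites lay 26813 bp upstream of 1700080O16Rik, with RelB log2 folds of 3.81 and 4.17, and the next in an intron of Lancl3, with 4.09 and 3.70 and no input read in either list. A pair of sites lay in introns of Dmd, the dystrophin gene, with 3.29 and 3.21 and with 2.5 and 2.73. A κB match was present at 7 of the 12 sites. The median of the mean log2 fold was 3.06 on chromosome X and 2.78 on the autosomes. Of the 12 sites, 2 overlapped a peak at 0 h, and the part of mapping or copy number on this chromosome was not tested.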
